A study of Rattus norvegicus with 6 samples.

Results

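Genes of the core and linker histones were compared between fibrotic and control livers of the rat. Rows of the expression table were taken by their symbol, as cluster genes where the symbol starts with Hist, a cluster number and h, and as variant genes where it starts with H1f, H2af, H3f or H4f. This gave 49 of the 19616 genes in the table, of which 39 were cluster genes under 29 symbols and 10 were variant genes under 9 symbols. Total RNA of the whole liver was sequenced in 6 rats after removal of ribosomal RNA, with 1 library per rat. The 3 rats of the fibrosis group (FL2, FL5 and FL12) had been injected intraperitoneally with CCl4, a hepatotoxin, mixed with olive oil, at 2 mL per kg of body weight 2 times a week for 5 weeks. The 3 rats of the control group (CL5, CL6 and CL7) had received the same volume of olive oil alone. All were SPF male SD rats that weighed 200 ± 20 g on purchase, and the age was not given in the sources used here. The labels name each rat separately, so replicates are separate rats, from 10 rats assigned to the CL group and 15 to the FL group. The samples are bulk tissue, in which more cells of a type and more RNA per cell cannot be told apart, nor can fewer cells and less RNA.

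Replication-dependent histone genes lie in clusters, have no introns, and are transcribed mainly in S phase, when new DNA is packed into nucleosomes. Their messenger RNAs end in a stem-loop in place of a poly(A) tail, so a library made by removing ribosomal RNA can hold them where selection on poly(A) would lose them. Variant histone genes have mostly polyadenylated transcripts, are expressed outside S phase as well, and encode histones such as H2A.Z and macroH2A that replace the canonical ones in resting cells, the main state of adult hepatocytes.

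Hepatocyte genes, which check the tissue but not the fibrosis label, were abundant in every rat. Summed over 10 hepatocyte genes, the level was 47670, 45120 and 45840 FPKM in the order CL5, CL6, CL7 against 38160, 38440 and 37240 FPKM for FL2, FL5, FL12, the order kept for every gene below. Most of this sum, and of its difference between the groups, was albumin (Alb), with 33392, 31431 and 31992 FPKM (CL group) against 24149, 25052 and 25209 FPKM (FL group). By limma 0 of the 10 were called, beside 9.29% called higher and 0.935% called lower among all genes tested. At an unadjusted p under 0.05, 2 were higher, beside 31.5% of all genes tested. The moderated SE was large at such levels, 0.98 for the Alb log2 difference of −0.38, so the test could miss differences of this size. With a prior without trend, 0 of the 10 were called as well. The FL rats lay below the CL rats in Alb, Ttr, Ass1 and Hnf4a, beside 4.78% of all genes tested. They lay above in Apoa1, beside 35.7%, and the groups overlapped in the rest. None of the 10 was at 0 in any rat.

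Together, the cluster genes had a higher level in every FL rat than in every CL rat. Their summed level was 176, 221 and 199.6 FPKM (CL group) against 395, 399 and 315 FPKM (FL group), or 199 ± 23 in the CL group and 369.9 ± 47.4 in the FL group (SD, n = 3), a ratio of 1.86. FL2 and FL5 were alike and FL12 was the lowest FL rat, still above CL6, the highest CL rat. The variant genes summed to 63.3, 63.8 and 62.9 FPKM (CL group) against 82.5, 90.8 and 83.4 FPKM (FL group), or 63.3 ± 0.48 in the CL group and 85.6 ± 4.56 in the FL group (SD, n = 3), a ratio of 1.35. Here too the groups did not overlap, and the CL rats differed by less than 1 FPKM. The cluster genes thus made up 0.0567%, 0.065% and 0.0633% of the total FPKM in the CL group and 0.128%, 0.147% and 0.116% in the FL group. For the variant genes, the shares were 0.0205%, 0.0187% and 0.0199% against 0.0267%, 0.0333% and 0.0307%. The cluster sum was 2.77, 3.47 and 3.17 times the variant sum in the CL group and 4.79, 4.4 and 3.78 times in the FL group, again without overlap. The total FPKM of the table itself was lower in FL5 and FL12 (272349.9 and 272110.4) than in FL2 (309226.4) and in the CL rats (309424.9, 340467.0 and 315258.7), and its part in the result was not tested.

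**Figure D1:**
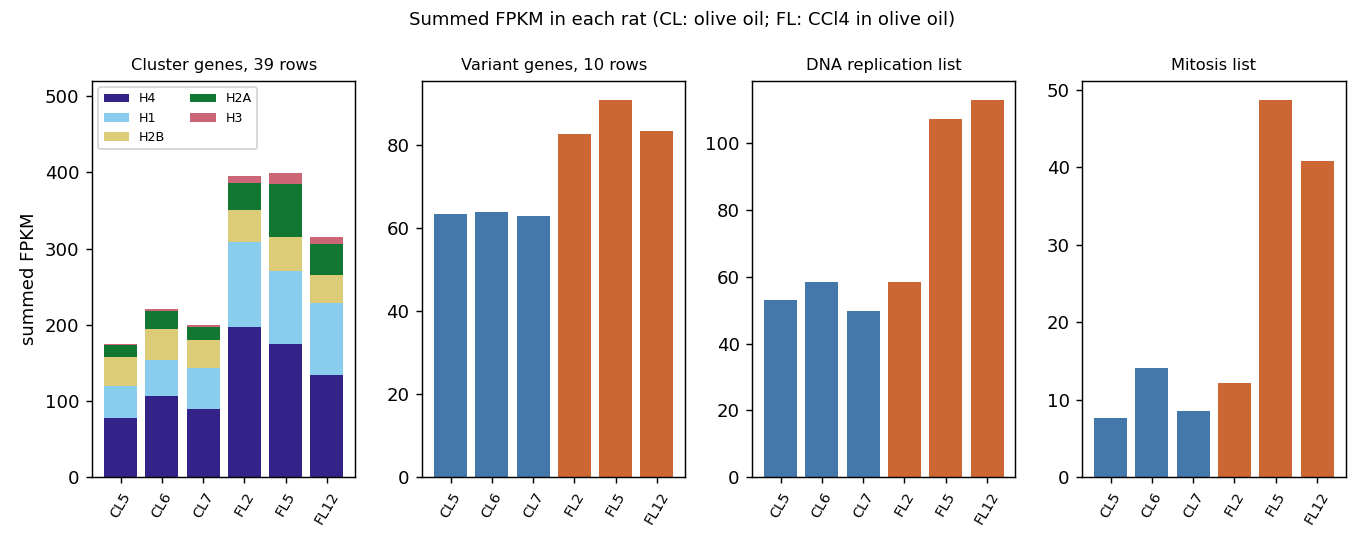
Each bar is the summed FPKM (vertical axis, a separate scale in each panel) of 1 rat, for the 39 cluster genes stacked by histone class, the 10 variant genes, the DNA replication list and the mitosis list, with CL rats in blue and FL rats in orange in all panels but the first. For the cluster genes, FL2 stood at 395 FPKM and FL5 at 399 FPKM. For the mitosis list, FL2 was at 12.1 FPKM, within the range of the CL rats, and FL5 at 48.7 FPKM.

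Gene by gene, the FL group was compared with the CL group by limma on log2(FPKM + 0.1), so a fold change is on that scale and understates the change of genes with low levels. A gene was called upregulated with an adjusted p under 0.05 over the 14864 genes tested and a fold change of at least 2. Of the 39 cluster genes, 19 were upregulated (48.7%), beside 9.29% of all genes tested. Of the 10 variant genes, 1 was upregulated, H2afz. By limma, 0 cluster genes and 0 variant genes were downregulated, also at an unadjusted p under 0.05, beside 0.935% and 4.04% of all genes tested. The values of the 3 FL rats lay above those of the 3 CL rats in 23 of the 39 cluster genes and 5 of the 10 variant genes, beside 35.7% of all genes tested. In 0 of the members did the FL rats lie below, beside 4.78% of all genes tested. The count of 19 depended on single rats and was 12 without CL5, 11 without CL7 and 7 without FL5. H2afz lost its call without CL5, CL6, CL7, FL5 or FL12, each left out in turn, and 2 variant genes were called without FL2.

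Without a filter on low values, the median log2 difference (FL minus CL) was 1.33 over the 39 cluster genes and 0.47 over the 9 variant genes above 0 in any rat, beside 0.25 over all 19097 such genes. A mean of at least 0.1 FPKM was needed for the test, which 37 cluster genes and 8 variant genes passed. Among these, Hist1h2bd, Hist1h2ba, Hist1h2af, Hist2h2aa2 (ENSRNOG00000052555) and H2afy2 passed only through the FL group, so the counts here are over all members. Hist3h2ba, Hist1h2bh, H2afj and H1foo were not tested, and H1foo, a gene of the oocyte, was at 0 in all 6 rats. Scaling the rats to each other shifted the median over all genes tested, which was 0.29 on the FPKM as they stood, 0.08 after median scaling and −0.04 after quantile normalization. Over the genes tested, the cluster median was 1.33 and the variant median 0.60 (8 genes, H2afy2 among them). The cluster median lay 1.04 above that of all genes tested, and 1.06 and 1.02 above it after the 2 scalings. For the variant genes this distance was 0.31, 0.30 and 0.43. The scalings also changed how the calls divided over all genes, from 1381 up and 139 down (90.9% up) to 824 up and 180 down (82.1%) after median scaling and 453 up and 231 down (66.2%) after quantile normalization. Of the 19 upregulated cluster genes, 14 and 8 kept their call, and 0 cluster genes were downregulated by limma under either.

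**Figure D2:**
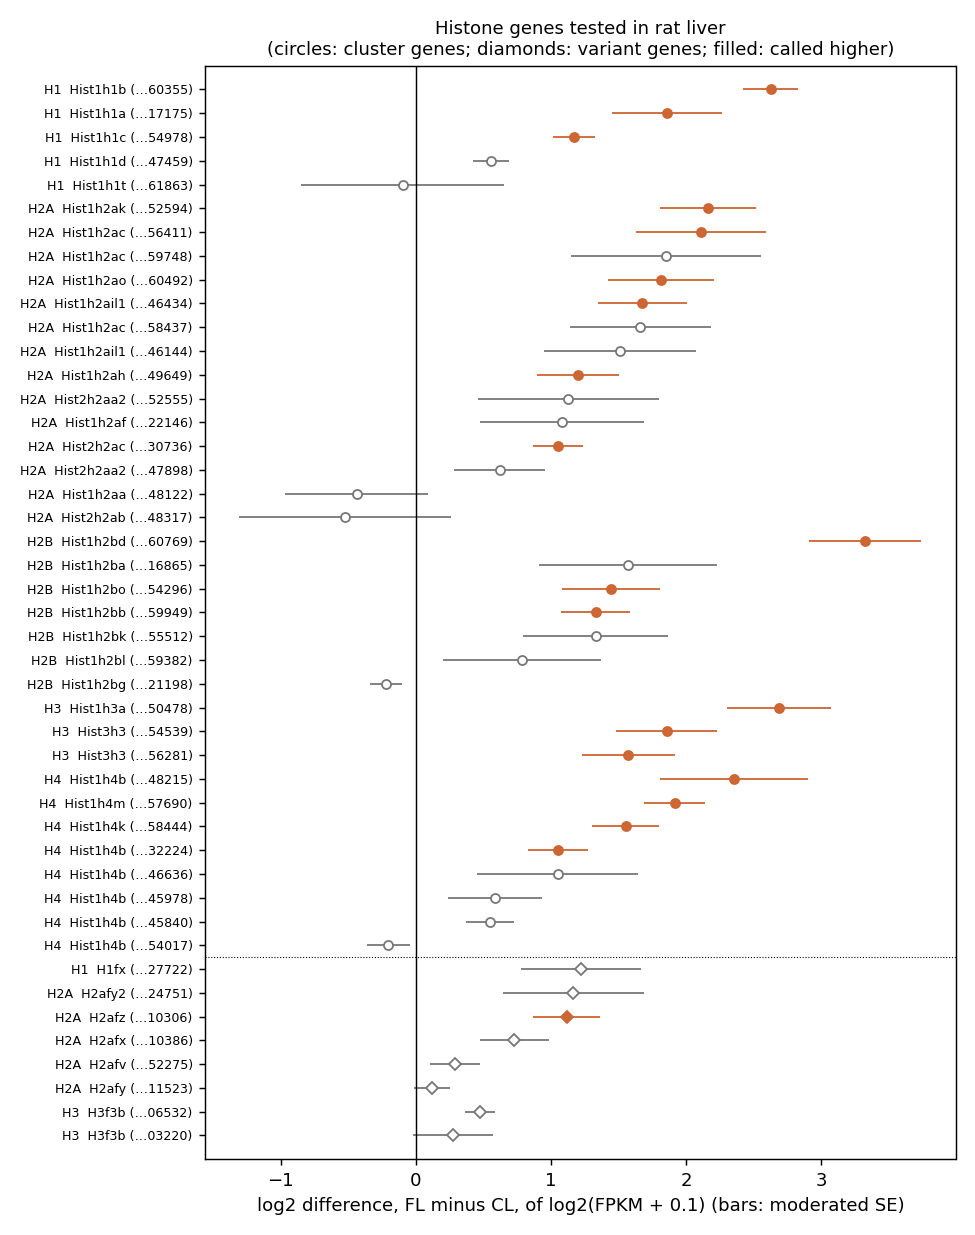
Log2 differences between the FL and the CL group (horizontal axis, log2(FPKM + 0.1), bars are moderated SE) of the 45 histone genes tested, with circles for cluster genes, diamonds for variant genes and filled symbols for those called upregulated. Cluster genes ran from −0.52 to 3.32 and variant genes from 0.12 to 1.23, although after quantile normalization H2afy, H2afv, the second H3f3b row and a Hist1h4b row (ENSRNOG00000045978, −0.0248) went below 0.

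Linker histones bind the DNA between nucleosomes. The 5 cluster genes of H1 summed to 43.3, 48.1 and 53.5 FPKM (CL group) against 112, 95.6 and 93.8 FPKM (FL group), a ratio of 2.08 without overlap. Of the 5, 3 were upregulated, beside 9.29% of all genes tested. Hist1h1c (ENSRNOG00000054978), known as a main H1 of differentiated cells with polyadenylated transcripts, measured 26.6, 26.2 and 32.3 FPKM (CL group) against 76.7, 58.9 and 57.2 FPKM (FL group). It carried most of the H1 level, FL2 was the highest rat, and the log2 difference was 1.17 (SE 0.15, adjusted p = 0.00455), called in 14 of 15 alternatives and lost with median scaling (0.95). Hist1h1b (ENSRNOG00000060355), an H1 of dividing cells, had 0.96, 1.03 and 0.92 FPKM (CL group) against 4.86, 7.31 and 7.69 FPKM (FL group). Its CL rats were almost alike and its FL rats were all several times higher, with a log2 difference of 2.62 (SE 0.20, adjusted p = 0.000966), the lowest adjusted p of the members. Levels of Hist1h1a (ENSRNOG00000017175) were 0.54, 1.15 and 0.47 FPKM (CL group) against 2.1, 4.67 and 1.96 FPKM (FL group). FL5 stood out above the other FL rats, and the log2 difference was 1.86 (SE 0.41, adjusted p = 0.0201), called in 11 of 15 alternatives and lost with quantile normalization, and without CL5, CL7 or FL5. Hist1h1d (ENSRNOG00000047459) had 15.2, 19.5 and 19.8 FPKM (CL group) against 27.8, 24.8 and 27 FPKM (FL group). The groups did not overlap, but the difference of 0.55 (SE 0.13, adjusted p = 0.0278) was under 2-fold. Hist1h1t, the H1 of spermatocytes, was at or below 0.36 FPKM in every rat, with overlapping groups and a difference of −0.10 (SE 0.75, adjusted p = 0.94) that became 0.0158 with a pseudocount of 1 and 0.27 without FL5 or FL12.

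H2A forms the dimer with H2B on the outside of the nucleosome. The 14 cluster rows of H2A summed to 15.2, 24.2 and 18.3 FPKM (CL group) against 35.3, 68.6 and 40.7 FPKM (FL group), a ratio of 2.51. Of the 14, 6 were upregulated, beside 9.29% of all genes tested. FL5 was the highest rat, and CL6, at 24.2 FPKM, the highest CL rat. The most abundant was Hist1h2ah (ENSRNOG00000049649), with 5.38, 8.57 and 6.52 FPKM (CL group) against 11, 25.1 and 13.5 FPKM (FL group). All FL rats lay above the CL rats and FL5 was far above FL2 and FL12, and the difference was 1.20 (SE 0.30, adjusted p = 0.0324), called in 7 of 15 alternatives and lost with all genes kept, median scaling, quantile normalization or a prior without trend, and without CL5, CL7, FL5 or FL12. Hist2h2ac (ENSRNOG00000030736), on chromosome 2, had 3.94, 5.55 and 4.3 FPKM (CL group) against 9.57, 11.6 and 7.81 FPKM (FL group). The FL rats were closer to each other there, and the difference was 1.05 (SE 0.19, adjusted p = 0.0104), called in 10 of 15 alternatives and lost with a pseudocount of 1, median scaling or quantile normalization, and without CL5 or FL5. Hist1h2ak (ENSRNOG00000052594) had 0.62, 0.52 and 0.75 FPKM (CL group) against 1.77, 4.99 and 3.46 FPKM (FL group). No CL rat reached 1 FPKM and no FL rat was below 1.77 FPKM, and the difference was 2.16 (SE 0.35, adjusted p = 0.00804).

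The other 3 upregulated H2A genes were also at low levels. Hist1h2ao (ENSRNOG00000060492) had 0.96, 1.66 and 0.81 FPKM (CL group) against 2.45, 6.99 and 3.97 FPKM (FL group). FL5 was again the highest rat, with a difference of 1.81 (SE 0.39, adjusted p = 0.0191), called in 10 of 15 alternatives and lost with quantile normalization, and without CL5, CL7, FL5 or FL12. The row ENSRNOG00000046434 of Hist1h2ail1 had 0.76, 1.25 and 2.01 FPKM (CL group) against 3.88, 5.51 and 3.47 FPKM (FL group). CL7 came nearest to the FL rats without reaching them, and the difference was 1.67 (SE 0.33, adjusted p = 0.014), called in 13 of 15 alternatives and lost with quantile normalization, and without FL5. Of the 3 rows under Hist1h2ac, ENSRNOG00000056411 had 0, 0.26 and 0.14 FPKM (CL group) against 0.68, 0.77 and 0.93 FPKM (FL group). Its FL rats were alike and above all CL rats, and it alone of the 3 was upregulated, with 2.11 (SE 0.48, adjusted p = 0.0227), called in 8 of 14 alternatives and lost with a pseudocount of 1, a pseudocount of 0.01 or quantile normalization, and without CL7, FL5 or FL12. The remaining H2A rows, among them the germ cell gene Hist1h2aa, were not called, and their differences ran from −0.52 to 1.85. The most negative of all cluster genes was Hist2h2ab (ENSRNOG00000048317), with 0.06, 0.52 and 0.27 FPKM (CL group) against 0.59, 0.08 and 0 FPKM (FL group). The groups overlapped, FL2 being the highest and FL12 the lowest rat, and the difference of −0.52 (SE 0.78, adjusted p = 0.661) turned to 0.0847 without FL12 and was −1.31 without FL2.

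H2B was the class in which the sum moved least. Its 9 cluster genes summed to 37.7, 40.3 and 36.8 FPKM (CL group) against 42.4, 45.1 and 37.3 FPKM (FL group), with FL12 inside the range of the CL rats, and the ratio of 1.09 became 0.933 after median scaling. Most of this sum came from 1 gene, Hist1h2bg (ENSRNOG00000021198), with 35, 35.1 and 32.4 FPKM (CL group) against 32.9, 29.5 and 25.9 FPKM (FL group). FL2 lay within the CL range and FL5 and FL12 lay below it, and the difference of −0.22 (SE 0.12, adjusted p = 0.229) was not called. The next gene in level, Hist1h2bb (ENSRNOG00000059949), had 2.22, 3.61 and 3.57 FPKM (CL group) against 5.66, 9.43 and 9.05 FPKM (FL group). All FL rats were above all CL rats, FL2 being the lowest of them, and the difference was 1.33 (SE 0.26, adjusted p = 0.0129), called in 14 of 15 alternatives and lost without FL5. Hist1h2bd (ENSRNOG00000060769), a gene known for polyadenylated transcripts, was at 0, 0 and 0.07 FPKM (CL group) against 1.13, 1.66 and 0.69 FPKM (FL group). CL5 and CL6 were listed at 0, so that its difference of 3.32 (SE 0.41, adjusted p = 0.00414), the largest of the members, depended on the pseudocount and ran from 1.05 to 5.78 over the 14 alternatives in which it was tested, with the call kept in each. Hist1h2bo (ENSRNOG00000054296) had 0.06, 0.17 and 0.08 FPKM (CL group) against 0.35, 0.44 and 0.54 FPKM (FL group). These low levels did not overlap, and the difference was 1.44 (SE 0.36, adjusted p = 0.0318), called in 7 of 14 alternatives and lost with a pseudocount of 1, median scaling or quantile normalization, and without CL5, CL7, FL5 or FL12. Thus 3 of the 9 H2B genes were upregulated, beside 9.29% of all genes tested, and 6 were not or could not be tested.

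H3 and H4 form the tetramer at the centre of the nucleosome. The 3 cluster rows of H3 had low levels and all 3 were upregulated, beside 9.29% of all genes tested. Their sum was 2.22, 2.59 and 1.81 FPKM (CL group) against 8.57, 15 and 8.72 FPKM (FL group), a ratio of 4.88. Hist1h3a (ENSRNOG00000050478) had 0.43, 1.09 and 0.71 FPKM (CL group) against 3.72, 8.52 and 4.04 FPKM (FL group). FL5 was the highest rat by a wide margin and FL2 the lowest FL rat, and the difference was 2.69 (SE 0.39, adjusted p = 0.00537). The row ENSRNOG00000054539 of Hist3h3 had 1.03, 1 and 0.39 FPKM (CL group) against 3.64, 3.53 and 2.02 FPKM (FL group). Its highest FL rat was FL2 and its difference was 1.85 (SE 0.37, adjusted p = 0.015), called in 13 of 15 alternatives and lost with quantile normalization, and without FL5. The second row of Hist3h3, ENSRNOG00000056281, had 0.76, 0.5 and 0.71 FPKM (CL group) against 1.21, 2.94 and 2.66 FPKM (FL group). FL2 was nearest to the CL rats, and the difference was 1.57 (SE 0.34, adjusted p = 0.0197), called in 9 of 15 alternatives and lost with a pseudocount of 1 or quantile normalization, and without CL6, CL7, FL5 or FL12. The table places both Hist3h3 rows on chromosome 17, while RefSeq has that symbol on chromosome 10.

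The 8 cluster rows of H4 held the largest part of the cluster sum, 42.7% to 49.9% over the rats. They summed to 77.1, 106 and 89.3 FPKM (CL group) against 197, 175 and 135 FPKM (FL group), a ratio of 1.86. Of the 8, 4 were upregulated, beside 9.29% of all genes tested. The cluster gene with the highest mean was ENSRNOG00000032224, under the symbol Hist1h4b and on chromosome 2, with 24.5, 37.4 and 35.4 FPKM (CL group) against 83.1, 69.4 and 50.3 FPKM (FL group). FL2 was the highest rat and all FL rats lay above the CL rats, and the difference was 1.05 (SE 0.22, adjusted p = 0.0184), called in 9 of 15 alternatives and lost with median scaling or quantile normalization, and without CL5, CL7, FL2 or FL5. Another row of this symbol, ENSRNOG00000045840 on chromosome 4, had 33.7, 41.4 and 31.2 FPKM (CL group) against 62.8, 52.4 and 41.6 FPKM (FL group). FL12 was only just above CL6, and the difference of 0.55 (SE 0.18, adjusted p = 0.0674) was not called. Hist1h4k (ENSRNOG00000058444) had 7.56, 14.2 and 8.46 FPKM (CL group) against 32.1, 32 and 22.8 FPKM (FL group). FL2 and FL5 were alike and FL12 lower, all above the CL rats, and the difference was 1.55 (SE 0.25, adjusted p = 0.00729). Hist1h4m (ENSRNOG00000057690) had 2.85, 1.54 and 2.31 FPKM (CL group) against 8.83, 9.29 and 7.34 FPKM (FL group). Its FL rats differed little, and its difference was 1.91 (SE 0.22, adjusted p = 0.00339). The Hist1h4b row ENSRNOG00000054017, on chromosome 17, had 7.48, 10.45 and 10.9 FPKM (CL group) against 8.43, 8.48 and 7.78 FPKM (FL group). Here the FL rats lay within the CL range, with a difference of −0.20 (SE 0.16, adjusted p = 0.392) that was not called. The low row ENSRNOG00000048215 of the same symbol had 0.07, 0.44 and 0.17 FPKM (CL group) against 0.64, 2.13 and 1.91 FPKM (FL group). FL2 was the lowest FL rat, and the difference was 2.35 (SE 0.55, adjusted p = 0.0243), called in 9 of 14 alternatives and lost with quantile normalization, and without CL5, CL7, FL5 or FL12.

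**Figure D3:**
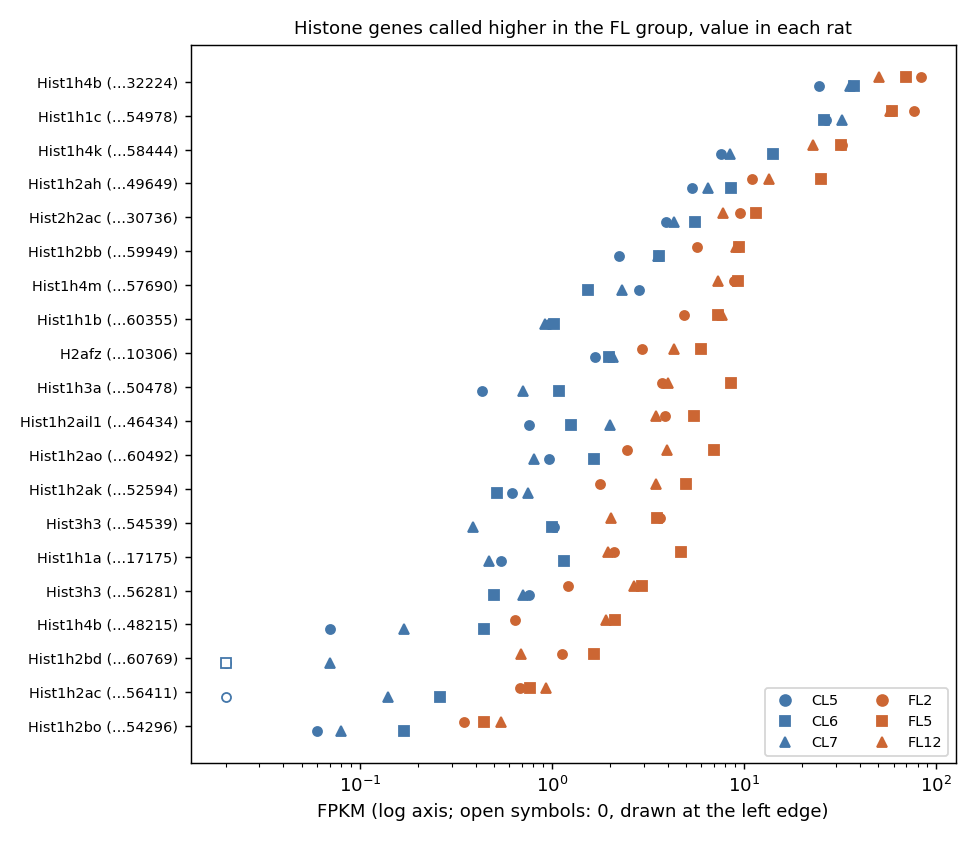
FPKM of the 20 upregulated histone genes in each rat (horizontal log axis, 1 line per gene ordered by mean), with CL rats in blue and FL rats in orange, and open symbols at the left edge for values of 0. The colours do not overlap in any of the 20 lines, and the log2 difference runs from 1.05 in Hist2h2ac to 3.32 in Hist1h2bd.

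Rows of one symbol thus behaved differently, and their reads may be hard to separate. Hist1h4b stood for 6 rows, on chromosomes 2, 4 and 17, with differences from −0.20 to 2.35. Histone genes of one class have nearly identical coding sequences, and only uniquely mapped reads had been counted, so the value of a single row is uncertain where copies share sequence. The chromosome in the table was that of the symbol in RefSeq for 41 of the 49 members and another one for 6, and 2 symbols (Hist1h4k and Hist1h2bb) were not matched. Sums over a class also miss reads that mapped to several places.

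By mean level, 13 of 18 cluster genes at 1 to under 20 FPKM were upregulated, 2 of 5 at 20 FPKM or more and 4 of 16 under 1 FPKM, of which 14 were tested, beside 9%, 2.61% and 5.87% of all genes in the table at these levels, where 4329 of the 9081 genes under 1 FPKM were tested. The 4 cluster genes with the highest mean made up 68.3%, 63.3% and 65.8% of the cluster sum in the CL group and 64.6%, 52.6% and 55.5% in the FL group. Their sum was 119.8, 140.1 and 131 FPKM (CL group) against 256, 210.2 and 175 FPKM (FL group), a ratio of 1.64, with FL2 the highest rat. The other 35 rows summed to 55.7, 81.3 and 68.3 FPKM (CL group) against 139.8, 189 and 140.1 FPKM (FL group), a ratio of 2.28, with FL5 the highest rat. This division was made after the values were seen. Above 1 FPKM there were 14, 19 and 14 cluster genes in the CL rats and 23, 27 and 25 in the FL rats. At 0 there were 6, 2 and 4 in the CL rats and 2, 1 and 4 in the FL rats, and the lowest values above 0 in each rat lay between 0.04 and 0.24 FPKM.

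Single rats led many of these genes. Among the 19 upregulated cluster genes, FL5 was the highest FL rat in 12, FL2 in 4 and FL12 in 3, while CL6 was the highest CL rat in 12, CL7 in 4 and CL5 in 3. FL2 led in the abundant genes Hist1h1c, Hist1h4b (ENSRNOG00000032224) and Hist1h4k, and also in the row ENSRNOG00000054539 of Hist3h3. FL5 led in Hist1h3a and in 5 of the 6 upregulated H2A genes.

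Some cluster genes are known to give polyadenylated transcripts in differentiated cells. Of 7 such symbols, 5 were in the table with 7 rows, of which 3 were upregulated (Hist1h1c, Hist1h2bd and 1 row of Hist1h2ac), beside 9.29% of all genes tested, with a median log2 difference of 1.66 beside 0.29 over all genes tested. Hist1h2bd passed the filter only through the FL group, so the count of 3 and this median cannot be weighed against those of all genes. The count of 3 was 2 with a pseudocount of 1 or 0.01, after either scaling, and without CL7, FL5 or FL12. It was 4 without FL2 and 1 among genes averaging 1 FPKM or more. The median was 0.80 with a pseudocount of 1 and 1.11 after quantile normalization. These 7 rows summed to 62.2, 63.7 and 66.4 FPKM (CL group) against 114, 99.7 and 87.9 FPKM (FL group), without overlap, FL2 being the highest rat. Of 10 genes known from germ cells, 4 were in the table (Hist1h1t, Hist1h2aa, Hist1h2ba and H1foo), and 0 of them were called by limma, beside 9.29% of all genes tested. Hist1h2ba was higher at an unadjusted p under 0.05 by limma, but it passed the filter only through the FL group. It is therefore not set beside the share of all genes. The 4 genes summed to 1.42, 2.22 and 1.16 FPKM (CL group) against 1.2, 3.17 and 1 FPKM (FL group). FL5 was the highest and FL12 the lowest rat, so the groups overlapped. Transcripts without a poly(A) tail from other gene classes were not analysed here, since 0 of the 7 listed symbols had a row.

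Variant genes replace canonical histones outside replication. H3f3b (ENSRNOG00000006532), on chromosome 10, encodes the replacement H3 and was the most abundant variant gene, with 36.7, 35.7 and 34.7 FPKM (CL group) against 54.2, 48.4 and 46.4 FPKM (FL group). The CL rats were alike and all FL rats lay above them, but the difference of 0.47 (SE 0.11, adjusted p = 0.0247) was under 2-fold. A second row under H3f3b, ENSRNOG00000003220 on chromosome 13, had 2.6, 2.68 and 1.62 FPKM (CL group) against 1.78, 3.16 and 3.63 FPKM (FL group). FL2 was among the lowest rats, the groups overlapped, and the difference of 0.27 (SE 0.30, adjusted p = 0.54) became −0.12 after quantile normalization. H2afz (ENSRNOG00000010306), the gene of H2A.Z, a variant found around transcription start sites, had 1.68, 1.97 and 2.08 FPKM (CL group) against 2.94, 5.97 and 4.32 FPKM (FL group). It was the single variant gene to be upregulated, FL5 being the highest rat, with a difference of 1.11 (SE 0.25, adjusted p = 0.0216), called in 7 of 15 alternatives and lost with a pseudocount of 1, median scaling or quantile normalization, and without CL5, CL6, CL7, FL5 or FL12. H2afv (ENSRNOG00000052275), which encodes the second form of H2A.Z, had 0.92, 0.94 and 1.03 FPKM (CL group) against 1.12, 1.29 and 1.19 FPKM (FL group). The groups lay close without overlap, and the difference of 0.29 (SE 0.19, adjusted p = 0.3) became −0.24 after quantile normalization.

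H2afy (ENSRNOG00000011523), the gene of macroH2A, a variant known from the inactive X chromosome, had 18.8, 17.7 and 18.9 FPKM (CL group) against 17.1, 23.2 and 20.4 FPKM (FL group). FL2 was the lowest and FL5 the highest rat, and the difference of 0.12 (SE 0.13, adjusted p = 0.54) became −0.10 after median scaling and −0.0307 after quantile normalization. Its relative H2afy2 (ENSRNOG00000024751) was at 0.01, 0 and 0.06 FPKM (CL group) against 0.05, 0.24 and 0.29 FPKM (FL group). Levels this low overlapped between the groups, with a difference of 1.17 (SE 0.53, adjusted p = 0.153). H2afx (ENSRNOG00000010386), whose protein is phosphorylated at breaks in DNA, had 2.39, 4.13 and 3.87 FPKM (CL group) against 4.19, 6.72 and 6.41 FPKM (FL group). The lowest FL rat, FL2, was just above CL6, and the difference was 0.73 (SE 0.26, adjusted p = 0.0837), not called. H1fx (ENSRNOG00000027722), a linker histone variant, had 0.19, 0.65 and 0.64 FPKM (CL group) against 1.09, 1.82 and 0.8 FPKM (FL group). Its difference of 1.23 (SE 0.44, adjusted p = 0.0913) was the largest among the variant genes and was not called, although the FL rats lay above the CL rats.

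Genes that make and process histone transcripts were close to all genes. Of the 14864 genes tested, 9.29% were upregulated, and 31.5% were higher and 4.04% lower at an unadjusted p under 0.05. Of 18 genes of histone transcription and 3′ end processing, 1 was upregulated and 0 were downregulated by limma (6 and 0 at an unadjusted p under 0.05), beside these shares, with a median log2 difference of 0.26 that became 0.04 after median scaling and −0.085 after quantile normalization. The upregulated gene was Ccne2, a cyclin of the entry into S phase, with 0.09, 0.07 and 0.2 FPKM (CL group) against 0.31, 0.43 and 0.61 FPKM (FL group). Its low levels did not overlap, and the difference was 1.33 (SE 0.39, adjusted p = 0.0484). The count of 1 became 0 with either other pseudocount, all genes kept, a mean of at least 1 FPKM, either scaling, or without CL5, CL6, CL7, FL5 or FL12, and 3 without FL2. Slbp, whose protein binds the stem-loop of histone messenger RNAs, had 2.93, 2.47 and 3 FPKM (CL group) against 3.19, 3.39 and 2.68 FPKM (FL group). The groups overlapped, with a difference of 0.13 (SE 0.16, adjusted p = 0.574). Npat, the coactivator of the histone clusters, had 2.08, 2.13 and 2.3 FPKM (CL group) against 2.98, 3.13 and 3.1 FPKM (FL group). The FL rats were alike and above the CL rats, and the difference of 0.48 (SE 0.14, adjusted p = 0.0462) was under 2-fold.

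Histone chaperones carry new histones to DNA. Of the 25 genes listed, 24 were in the table and 23 were tested, of which 1 was upregulated and 0 were downregulated by limma (15 and 0 at an unadjusted p under 0.05), beside 9.29% and 31.5% of all genes, with a median of 0.39. Asf1b and Chaf1b, both among the 15, passed the filter only through the FL group, so the 15 cannot be weighed against the share of 31.5%. The count of 1 was 0 after either scaling, with medians of 0.17 (median scaling) and 0.12 (quantile normalization), and 5 without FL2. Nap1l1, a chaperone of H2A and H2B, was the upregulated gene, with 6.34, 7.82 and 5.71 FPKM (CL group) against 12.7, 14.3 and 16.7 FPKM (FL group). FL12 was the highest rat and all FL rats lay above the CL rats, with a difference of 1.13 (SE 0.16, adjusted p = 0.00519). Hjurp, the chaperone of the centromeric H3, had 0.16, 0.24 and 0.1 FPKM (CL group) against 0.17, 1.08 and 0.8 FPKM (FL group). FL2 fell within the CL range, and the difference of 1.34 (SE 0.56, adjusted p = 0.131) was not called. Cenpa, which encodes that centromeric H3, had 0.43, 0.38 and 0.33 FPKM (CL group) against 0.51, 1.22 and 1.2 FPKM (FL group). All FL rats were above the CL rats, FL2 only slightly, with a difference of 1.09 (SE 0.35, adjusted p = 0.0645).

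Genes of DNA replication and of mitosis were upregulated in part, and their sums in FL2 were level with CL6 or below it. Of 36 replication genes, 35 were tested, 7 were upregulated and 0 were downregulated by limma (14 and 0 at an unadjusted p under 0.05), beside 9.29% and 31.5% of all genes, with a median of 0.73 that was 0.53 after median scaling, 0.15 after quantile normalization and 0.37 with a pseudocount of 1. The upregulated genes with the largest differences were Mcm5 (2.16, adjusted p = 0.0137), Mcm3 (1.86, adjusted p = 0.0366) and Cdt1 (1.80, adjusted p = 0.029), which load and form the replicative helicase. Pcna, the sliding clamp of DNA polymerases, had 3.95, 2.67 and 3.22 FPKM (CL group) against 5.38, 5.05 and 6.23 FPKM (FL group). The groups did not overlap, and the difference of 0.75 (SE 0.17, adjusted p = 0.0236) was under 2-fold. The list summed to 53.2, 58.3 and 49.7 FPKM (CL group) against 58.4, 107 and 113 FPKM (FL group), so that FL2 was level with CL6 and below FL5 and FL12. The count of 7 was 12 without FL2 and 0 without CL7 or FL5, 1 without CL5 or FL12, and 3 without CL6, and it was 3 after median scaling or with all genes kept, 4 with a mean of at least 1 FPKM or a prior without trend, and 1 after quantile normalization or with a pseudocount of 1.

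Of 20 mitosis genes, 19 were in the table and tested, 6 were upregulated and 0 were downregulated by limma (15 and 0 at an unadjusted p under 0.05), beside 9.29% and 31.5% of all genes, with a median of 1.32 that was 1.15 after median scaling, 0.80 after quantile normalization and 0.71 with a pseudocount of 1. Birc5 (2.35, adjusted p = 0.0187), Cenpf (1.88, adjusted p = 0.0264) and Tpx2 (1.73, adjusted p = 0.0264), all proteins of the dividing chromosomes or spindle, had the largest differences among those called. Mki67, the gene of the proliferation antigen Ki-67, had 0.68, 1.35 and 0.85 FPKM (CL group) against 1.36, 5.83 and 4.43 FPKM (FL group). FL2 was only just above CL6, and the difference was 1.73 (SE 0.50, adjusted p = 0.0478). Top2a, the topoisomerase of replicating and mitotic cells, had 0.61, 1.31 and 0.89 FPKM (CL group) against 0.99, 3.85 and 3.1 FPKM (FL group). FL2 lay within the CL range, and the difference of 1.27 (SE 0.48, adjusted p = 0.104) was not called. The list summed to 7.71, 14.1 and 8.53 FPKM (CL group) against 12.1, 48.7 and 40.9 FPKM (FL group). FL2 lay above CL5 and CL7 and below CL6. Its cluster histone sum of 395 FPKM was close to that of FL5. Over the 35 cluster rows other than the 4 most abundant, FL2 had 139.8 FPKM and FL5 had 189 FPKM. The mitosis count was 19 without FL2, 3 without CL6, and 0 without CL5, CL7, FL5 or FL12, and it was 3 after median scaling, with all genes kept or a prior without trend, 2 with a pseudocount of 1, 4 among genes averaging 1 FPKM or more and 0 after quantile normalization. The part of the cycling genes in the histone result was not tested.

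Markers of other liver cells are given beside 9.29% of all genes upregulated and a median of 0.29 over all genes, and their part in the histone result was not tested. Of 10 stellate cell or myofibroblast genes, 9 were tested and 6 were upregulated, with a median of 2.28 and a sum of 82.2, 86 and 80.2 FPKM (CL group) against 203, 545 and 498 FPKM (FL group). Col3a1 was the most abundant of them, and FL2 was the lowest FL rat. For the 10 macrophage genes, 4 were upregulated, the median was 0.93 and the sum was 143, 136 and 138 FPKM (CL group) against 319, 311 and 208 FPKM (FL group). Clec4f, a gene of Kupffer cells, was the most abundant and was not called by limma (−0.02, adjusted p = 0.974), with overlapping groups. The upregulated genes were Lyz2 (3.13), Marco (2.06), Cd68 (1.69) and Csf1r (1.13). In the sum over the list, FL2 and FL5 were high and FL12 lower. Of the 8 cholangiocyte genes, 7 were tested and 1 was upregulated, Spp1, which was also the most abundant, with a median of 0.34 and a list sum of 10.3, 16 and 10.9 FPKM (CL group) against 19.1, 75 and 48.4 FPKM (FL group). Krt19 and Krt7, which define cholangiocytes, were not called, and the count of 1 was 0 without CL7 and 2 without FL2. The cholangiocyte median was 0.58 without FL2, 0.12 after median scaling and 0.05 after quantile normalization.

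Endothelial genes had a median of 0.30, with 1 of 7 upregulated (Vwf) and a sum of 78.6, 76.5 and 68.5 FPKM (CL group) against 94, 79.7 and 88.2 FPKM (FL group), in which Kdr was the most abundant. The call was lost with a pseudocount of 1, either scaling, a prior without trend, or without CL5, CL6, CL7, FL5 or FL12, and the count and median were near those of all genes. B lymphocyte genes summed to 0.79, 1.06 and 1.02 FPKM (CL group) against 3.91, 6.67 and 4.75 FPKM (FL group). Blnk had the highest mean and was the single one of the 3 tested to be upregulated, 2 being so without FL12. The median over these 3 was 0.96, and it was 0.44 with a pseudocount of 1 and 0.35 after quantile normalization. T or NK lymphocyte genes summed to 11.8, 9.61 and 10.6 FPKM (CL group) against 21.5, 29.4 and 23 FPKM (FL group). Cd4 was the most abundant and the single one of the 7 tested to be upregulated. It made up most of the sum in every rat, and all other genes of the list overlapped between the groups. The list's median of 0.47 became −0.15 after quantile normalization, 0.30 after median scaling and 0.16 with a pseudocount of 1. It was 0.78 without FL2 and 0.75 without CL7. Neutrophil genes summed to 0.37, 0.85 and 1.05 FPKM (CL group) against 3.95, 1.75 and 3.99 FPKM (FL group), with S100a8 the most abundant, 2 of 4 tested upregulated and a median of 1.52. The count of 2 was 0 with all genes kept, either scaling, a prior without trend, or without CL5, CL6, FL2, FL5 or FL12. It was 1 without CL7, with a pseudocount of 1 or 0.01 or among genes averaging 1 FPKM or more, and the median was 0.47 with a pseudocount of 1.

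Erythroid genes had a sum of 92, 163 and 116 FPKM (CL group) against 131, 50.1 and 52.2 FPKM (FL group), led by Hbb, with overlapping groups. By limma 0 of the 6 were called, beside 9.29% called higher and 0.935% called lower among all genes tested. At an unadjusted p under 0.05, 1 was lower in the FL group, beside 4.04% of all genes, and the median was −0.63. Without FL2, 3 of the 6 were downregulated, beside 160 of all 14847 genes then tested, and the median was −1.07, while it was −0.29 without CL6, −0.33 without FL5 and −0.35 without FL12. Of the 10 hepatocyte genes, 0 were called by limma (2 were higher at an unadjusted p under 0.05, and 1 was called without FL2), beside 9.29% and 31.5% of all genes. The large moderated SE of the most abundant among these 10, given above, limits this count. Their median of 0.01 became −0.21 after median scaling and 0.31 after quantile normalization. None of the markers in these lists was at 0 in all 6 rats.

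Promoter sequences of the members were described as well. RefSeq promoters (build GRCr8, 250 bases before to 50 after the start) were matched by symbol and chromosome to 25 members, 17 cluster and 8 variant genes. The 17 were 3 genes of H1, 7 of H2A, 6 of H2B and 1 of H4 (Hist1h4m, without any of the motifs below), with no H3 gene. They held 9 of the 19 upregulated cluster genes, so the shares are not those of all cluster promoters. The letters TATAAA, on either strand, were found in 12 of the 17 cluster promoters (70.6%) and 2 of the 8 variant promoters (25%), beside 14.2% of all 33469 promoters. CCAAT was found in 15 of 17 (88.2%) and 5 of 8 (62.5%), beside 37.5% of all promoters. The octamer ATTTGCAT, known from H2B promoters, occurred in 7 of 17 (41.2%) and 1 of 8 (12.5%), beside 1.78% of all. Between upregulated and tested but not called cluster genes, the counts were 6 of 9 against 5 of 7 for TATAAA, 7 of 9 against 7 of 7 for CCAAT and 3 of 9 against 4 of 7 for ATTTGCAT. The promoters of Hist1h2aa and Hist1h2ba, both not called, overlap on opposite strands, so the same matches can be counted in both. A match is a description, not a site or a cause. The promoters of 4 genes are given 5′ to 3′ on the gene's strand, with matches to the 3 motifs on either strand in capitals: Hist1h1b, the gene with the lowest adjusted p (chr17:47421625-47421924, plus strand), Hist2h2ac, upregulated and holding all 3 motifs (chr2:186469177-186469476, minus strand), Hist1h2bg, abundant and not called (chr17:41999019-41999318, plus strand), and H2afz, the upregulated variant gene (chr2:229028845-229029144, plus strand).
Hist1h1b: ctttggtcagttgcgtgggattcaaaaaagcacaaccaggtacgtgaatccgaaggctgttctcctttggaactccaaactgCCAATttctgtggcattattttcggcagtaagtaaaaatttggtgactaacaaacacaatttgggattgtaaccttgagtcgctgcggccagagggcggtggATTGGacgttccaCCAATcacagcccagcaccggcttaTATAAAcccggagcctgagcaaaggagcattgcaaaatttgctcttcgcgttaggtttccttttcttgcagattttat
Hist2h2ac: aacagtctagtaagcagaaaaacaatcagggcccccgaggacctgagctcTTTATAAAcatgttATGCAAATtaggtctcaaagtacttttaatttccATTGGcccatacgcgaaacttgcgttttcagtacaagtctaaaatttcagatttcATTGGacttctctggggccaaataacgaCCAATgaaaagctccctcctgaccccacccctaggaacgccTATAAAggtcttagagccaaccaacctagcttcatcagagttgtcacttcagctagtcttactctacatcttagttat
Hist1h2bg: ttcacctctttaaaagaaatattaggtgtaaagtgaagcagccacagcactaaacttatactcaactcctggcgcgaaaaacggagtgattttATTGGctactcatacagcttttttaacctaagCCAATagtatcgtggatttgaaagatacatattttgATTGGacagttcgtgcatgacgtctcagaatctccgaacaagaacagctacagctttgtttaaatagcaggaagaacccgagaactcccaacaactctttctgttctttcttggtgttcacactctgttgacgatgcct
H2afz: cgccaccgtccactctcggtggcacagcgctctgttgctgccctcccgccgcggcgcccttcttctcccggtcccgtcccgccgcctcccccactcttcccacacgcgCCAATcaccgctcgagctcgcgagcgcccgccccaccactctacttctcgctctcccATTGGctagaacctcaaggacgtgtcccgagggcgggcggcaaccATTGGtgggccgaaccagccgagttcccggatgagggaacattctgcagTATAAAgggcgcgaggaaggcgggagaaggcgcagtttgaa
CCAAT and TATAAA were found in Hist1h1b, Hist2h2ac and H2afz, and CCAAT without TATAAA or the octamer in Hist1h2bg. The GC content of the 4 was 46.0%, 42.3%, 40.0% and 66.7%, the variant gene being the highest.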

How the data were processed

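Liver RNA of 3 CL and 3 FL rats was analysed from 1 table of values per gene. The authors trimmed reads with FASTX-Toolkit 0.0.13, aligned them with TopHat2 (4 mismatches allowed), counted uniquely mapped reads and deposited FPKM with 2 decimals. The submitters' notes name the build GRCh38, a human one, while the gene identifiers are those of the rat, so no coordinates of the table are given. The strand of counting was not given in the sources used here. Read depth per rat was not used here, whole reads were not recovered from the FPKM, and error was taken from the spread among 3 rats, moderated towards that of genes at similar levels. A further 2 columns of values were not used, as their names match no sample. The authors' own comparisons came from edgeR on counts, which were not used here.

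FPKM are not counts, so the 14864 of 19616 genes whose 6 values averaged 0.1 FPKM or more were fitted with limma (lmFit and eBayes with trend, two-sided) on log2(FPKM + 0.1), and p was adjusted by Benjamini-Hochberg across them. Upregulated and downregulated mean 2-fold or more with adjusted p < 0.05. SE are moderated. Members and lists were chosen with earlier results of these data known, so counts and medians stand beside those of all genes, without a test of a list. Besides the members named above, Asf1b, Chaf1b, Cdc45, Cftr, Ncr1 and Ngp of the lists passed the filter only through the FL group. The list medians include them. The lists were histone transcription and 3′ end processing, chaperones, DNA replication, mitosis, transcripts without a poly(A) tail, polyadenylated cluster genes, germ cell genes and markers of hepatocytes, stellate cells or myofibroblasts, macrophages, cholangiocytes, endothelium, B lymphocytes, T or NK lymphocytes, neutrophils and erythroid cells. Genes named were all members called, the 8 most abundant of each class, the extremes of each class and Slbp, Npat, Pcna, Mki67, Top2a, Hjurp and Cenpa. The 3 largest called differences were named for each list other than the cell type markers. For the markers, the most abundant gene of each list was named. Other genes were named after their values were seen. Other settings were run as well: pseudocounts of 1 and 0.01, all genes kept, genes averaging 1 FPKM or more, scaling by medians, quantile normalization, a prior without trend, a robust prior, no fold limit, and removal of each rat. The share of identical values above 0 between pairs of rats was 0.99% to 2.87%, so no library was taken as a duplicate. The procedure was tested on simulated data. R 4.3.3, limma 3.58.1, Python 3.11.15, numpy 2.4.6, pandas 2.3.3 and matplotlib 3.10.9 were used.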

Additional observations from a re-analysis of the deposited data

How the results depend on the processing

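No paired analysis was possible because the groups share only the number 5. Of the 19 upregulated cluster genes, 6 were called under every alternative in which they were tested (Hist1h4k, Hist1h4m, Hist1h1b, Hist1h3a, Hist1h2ak and Hist1h2bd), and downregulated cluster or variant genes numbered 0 by limma under each alternative. The number of upregulated cluster genes was 8 after quantile normalization, and 7 (without FL5) to 20 (without FL2) with 1 rat left out. Upregulated variant genes numbered 0 with a pseudocount of 1, after median scaling and after quantile normalization, 2 without a fold limit, and 0 to 2 (without FL2) with 1 rat left out. Over all genes, upregulated genes numbered 462 with a pseudocount of 1, 854 with a mean of at least 1 FPKM, 824 after median scaling, 453 after quantile normalization, 2518 without a fold limit, and 740 (without CL7) to 1831 (without FL2) with 1 rat left out. Downregulated genes numbered 72 with a pseudocount of 1, 231 after quantile normalization, 288 without a fold limit, and 81 (without CL6 or CL7) to 160 (without FL2) with 1 rat left out.

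The cluster median of 1.33 was 0.80 with a pseudocount of 1, 1.70 with one of 0.01 and 0.98 after quantile normalization. The variant median of 0.60 over the genes tested was 0.34 with a pseudocount of 1, 0.38 with a mean of at least 1 FPKM, 0.38 after median scaling and 0.39 after quantile normalization. The median of all genes, 0.29, was 0.19 with a pseudocount of 1, 0.0762 after median scaling and −0.0448, reversed, after quantile normalization. The ratio of the summed FPKM was 1.60 (cluster) and 1.16 (variant) after median scaling. It was 2.28 for the cluster genes without the 4 most abundant, an alternative chosen after seeing the data. Leaving out 1 rat gave ratios of 1.757 to 1.998 (cluster) and 1.31 to 1.375 (variant). Differences of members that changed sign were those of Hist1h1t (0.0158 with a pseudocount of 1, 0.27 without FL5 or FL12), Hist1h2aa (0.12 without FL2), the Hist1h4b row ENSRNOG00000045978 (−0.0248 after quantile normalization), Hist2h2ab (0.0847 without FL12, and still negative, −1.31, without FL2), H2afy (−0.10 after median scaling and −0.0307 after quantile normalization), H3f3b (−0.12) and H2afv (−0.24), the last 2 after quantile normalization. The cause of these shifts was not tested. With 3 rats a group and values near 0.1 FPKM, small differences may have been missed.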

Other observations

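Further rows were described as histones but carried other symbols, and so were not members. Of these 10 rows, 4 were upregulated by the same test, beside 9.29% of all genes tested. LOC102549173, described as like the replication-dependent H3, had 5.79, 9.11 and 8.11 FPKM (CL group) against 19.6, 15.4 and 14.1 FPKM (FL group), with no overlap, FL2 being the highest rat and a log2 difference of 1.09 (SE 0.20, adjusted p = 0.0106) by limma. LOC684828, described as similar to a linker histone, had 2.45, 2.9 and 2.98 FPKM (CL group) against 6.36, 7.74 and 6.4 FPKM (FL group). Its FL rats were alike and all above the CL rats, with a difference of 1.27 (SE 0.15, adjusted p = 0.00331). AABR07027811.3, described as an H3, had 0.81, 0.67 and 0.78 FPKM (CL group) against 2.83, 8.45 and 3.55 FPKM (FL group). FL5 was far above FL2 and FL12, which themselves lay above the CL rats, and the difference was 2.40 (SE 0.37, adjusted p = 0.00655). LOC100912338, described as like an H2B, had 0.53, 0.36 and 0.14 FPKM (CL group) against 0.96, 1.03 and 0.96 FPKM (FL group), its FL rats being nearly equal and its difference 1.40 (SE 0.37, adjusted p = 0.0367). The row LOC100910152, described as like a variant H2A, had 2.07, 5.41 and 2.6 FPKM (CL group) against 1.51, 2.75 and 1.1 FPKM (FL group). The groups overlapped, CL6 being the highest rat, and the difference of −0.85 (SE 0.41, adjusted p = 0.179) was not called.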
